A study of Mus musculus with 10 samples.

Results

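The genes described here flank the kallikrein cluster of mouse chromosome 7, the row of secreted serine protease genes that holds Klk8, the gene of neuropsin. They are 56 named neighbours of Klk8 on either side of the cluster, with the kallikreins themselves left out, and they were measured among 16367 genes in the amygdala of mice with and without neuropsin. Of the 56 genes, 53 had at least 1 probe set annotated to them alone, 904 probe sets together, and 771 of these exceeded the intensity filter (a log2 mean over all arrays above 4.94, the midpoint of the whole table). At the gene level 52 were tested, each as the mean log2 value of at least 3 such probe sets. Zfp819, a zinc finger gene, had a single probe set above the filter and was not tested as a gene. For Vsig10l and Bax no probe set carried the gene's name alone, and 15 probe sets were named Siglec5, an older name shared by Siglece and Siglecf, so Siglecf has no values of its own.

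The study compared amygdala RNA of wild-type mice on the C57BL/6 background with that of Neuropsin-/- knock-out mice that had been crossed back to C57BL/6 over 12 generations, all of them 3 months old and without any treatment. There were 5 exon arrays per genotype, and the design text gives 15 animals per genotype with RNA of 3 animals on an array, read here as 5 separate pools each. An exon array carries probe sets for single exons, so a gene is measured several times over. The labels do not say which part of Klk8 was removed.

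Genes that lie close together on a chromosome are inherited together, so a line bred for an altered gene also keeps, on both sides of it, a stretch of the chromosome on which the alteration was first made. Neighbouring genes can further share promoters or regulatory elements. The neighbours of Klk8 are of many kinds. On the centromeric side lie the Siglec genes, whose products bind sialic acid on other cells and restrain myeloid cells and B cells, and on the telomeric side lie broadly expressed genes of transcription, signalling and metabolism together with a few synaptic genes.

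The targeted gene did not differ clearly between the genotypes. The mean over all 9 Klk8 probe sets was 5.52, 5.07, 4.78, 5.23 and 5.26 on wild-type arrays 1 to 5 and 5.21, 4.60, 5.19, 4.86 and 5.25 on knockout arrays 1 to 5, and the groups overlapped (knockout minus wild type -0.15, exact two-sided permutation test, p = 0.413). By the median over the Klk8 probe sets the difference was -0.61 (exact permutation p = 0.0794). Over the 5 Klk8 probe sets above the filter the difference was -0.39 (SE 0.15, limma unadjusted p = 0.0199, adjusted p = 0.693). In 1 of the 9 probe sets, 4485756, all knockout arrays lay below all wild-type arrays, by -1.03 (exact permutation p = 0.00794, the smallest that 5 against 5 arrays allow, and 0.0714 adjusted over the 9). Probe sets 4837809 and 5496921 differed by -0.62 and -0.43 with overlap (exact permutation p = 0.0476 and 0.0317, both 0.143 adjusted). Probe sets 4766956, 5524356 and 5578007 were higher, by 0.25, 0.64 and 0.55. A probe set outside the removed part of the gene checks nothing. Array medians lay between 4.95 and 5.03, and gene levels correlated at 0.958 to 0.987 between arrays (across genes, which are not replicates). Wild-type arrays 4 and 5 stood apart on the first principal component, at 20.5 and 23.5 against -14.2 to 7.45 on the others. Knockout arrays 4 and 5 were also the highest of their genotype on it, at 7.45 and 3.14 against -11.7 to -2.43. Of 12 amygdala marker genes 11 passed the filter. Of these, 8 were lower in the knockout, with a median of -0.06. Their mean levels overlapped between genotypes, at 7.78 to 8.02 on wild-type and 7.80 to 7.87 on knockout arrays. Genes that mark the neighbouring hypothalamus had a mean level of 6.38 to 6.91 on the wild-type arrays and 6.00 to 6.22 on the knockout arrays, without overlap. Of these genes 7 of 8 were lower, with a median of -0.36. Myelin markers were lower in 11 of 11 measured genes (median -0.28) and striatum markers in 6 of 6 (median -0.21). For comparison, the median was -0.07 over the flanking genes and -0.26 over those on the centromeric side. The mean levels of the myelin and striatum markers overlapped between genotypes, at 7.93 to 8.90 against 7.98 to 8.40 and at 8.61 to 9.08 against 8.09 to 8.92. Astrocyte and neuron markers had medians of -0.03 and 0.05. The part of any of these in the values that follow was not tested. In a tissue, fewer cells of a type and less RNA per cell cannot be told apart.

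Most of the flanking genes were slightly lower in the knockout, and the tested ones on the centromeric side of the cluster were lower without exception, but no single gene passed the test. Among the 52 genes 37 were lower in the knockout (71.2%) and 15 higher, where 50.7% of all genes tested were lower. The median difference, knockout minus wild type, was -0.07 on the log2 scale, against -0.0019 over all genes. Without wild-type arrays 4 and 5 these medians were -0.08 and -0.05, and 7 flanking genes were lower with an unadjusted limma p under 0.05, where 11.2% of all genes reached that level in either direction. None of the 52 passed (limma, Benjamini-Hochberg adjusted p over all genes, threshold 0.05; smallest adjusted p = 0.341), where 4 of 16367 genes, or 0.0244%, did. At an unadjusted limma p under 0.05 there were 10 lower genes and 1 higher gene, 21.2% of the 52 together, where 6.98% of all genes reached this level, 4.14% lower and 2.84% higher. The number of such lower genes was 6 without knockout array 1 and 6 with each array centred on its median, and 5 with the median over probe sets. In these, 5.44%, 6.07% and 5.72% of all genes reached that level in either direction. The number of lower flanking genes was 13 without wild-type array 3 and 12 with the stricter intensity filter, where 10.6% and 6.36% of all genes reached that level in either direction. In 5 of the 52 genes, 9.62%, the genotypes did not overlap, and in each of these the knockout arrays were the lower ones. Over all genes tested, 1.55% did not overlap, 0.623% with the knockout arrays below and 0.923% with them above. The genes were chosen with earlier results of these data known, so these shares are descriptions.

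The genes are described next by their position. Counting tested genes from Klk8, the centromeric side held 9 of the 52 genes, between 5 and 15 genes away. All 9 were lower, with a median difference of -0.26, and 6 of them had an unadjusted p under 0.05. On the telomeric side the nearest gene stood 13 genes away. From there to 37 genes away lay 20 genes, of which 17 were lower, with a median of -0.12 and 3 with an unadjusted p under 0.05. Between 41 and 76 genes away lay 23 genes, of which 11 were lower, with a median of 0.01 and 2 at that level. On the whole telomeric side 65.1% of the genes were lower and 11.6% reached that level. Of all genes tested, 50.7% were lower and 6.98% reached it. The split of the telomeric side was made after its values were seen, and the difference between the stretches was not tested. Within a stretch the differences did not follow the distance: the nearest telomeric genes Clec11a, Syt3 and Lrrc4b were at 0.11, -0.00 and -0.05, while Josd2 and Vrk3 farther out were at -0.36 and -0.32, and on the centromeric side the nearest gene, Ctu1, was at -0.16 and Lim2, 14 genes away, at -0.28. Across 20 other ways of processing the values the centromeric median stayed between -0.30 and -0.18, and it was -0.18 without wild-type arrays 4 and 5. The count of 9 lower genes became 8 in 4 of them, and 4 of the 4 genes that remained with the stricter intensity filter were lower.

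**Figure D1:**
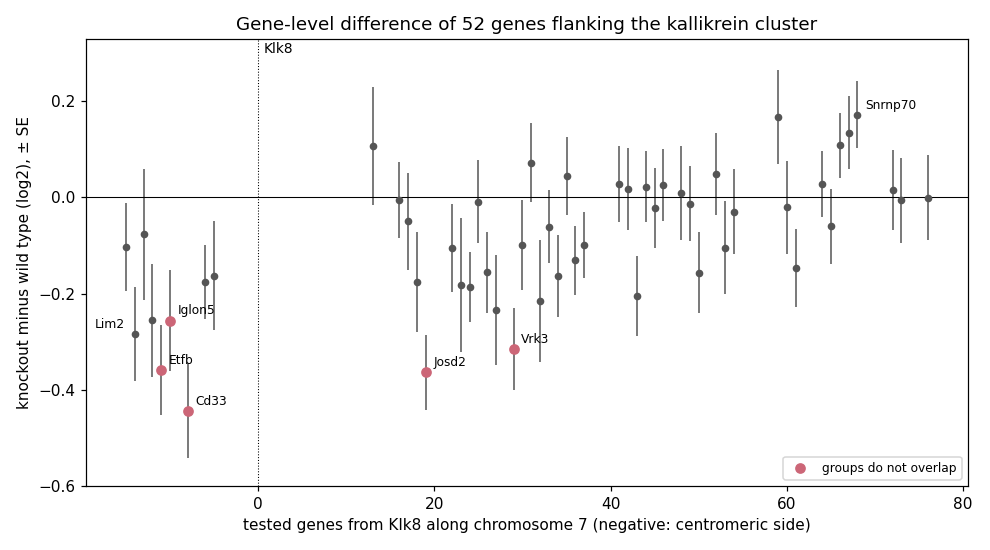
Difference in gene level between knockout and wild type (log2, with the standard error of the fit) for the 52 tested genes, placed by the number of tested genes between each gene and Klk8, negative values being the centromeric side. All 9 genes on the centromeric side lie below 0, the 23 farthest telomeric genes scatter around 0, and red points mark the 5 genes whose knockout and wild-type arrays do not overlap.

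Averaged over the 9 centromeric genes, with each gene centred over the 10 arrays, the wild-type arrays were at 0.11, 0.21, -0.02, 0.12 and 0.16 and the knockout arrays at -0.16, -0.09, -0.19, 0.02 and -0.18. Knockout array 4 was the highest of its group and exceeded wild-type array 3. Averaged over the telomeric genes, the wild-type arrays were at 0.06, 0.11, -0.05, -0.02 and 0.03 and the knockout arrays at -0.06, 0.02, -0.09, -0.02 and 0.02. There the groups overlapped widely.

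The immune cell genes were mostly lower. Of the 12, 11 were tested, 9 were lower and 2 higher, none passed, and the median difference was -0.16. Cd33, a Siglec receptor of myeloid cells, had the largest difference of all the flanking genes. It stood at 6.76, 6.82, 6.71, 6.60 and 6.62 on wild-type arrays 1 to 5 and at 6.33, 5.98, 6.50, 6.37 and 6.12 on knockout arrays 1 to 5. All knockout arrays lay below all wild-type arrays, and the wild-type mean of 6.70 ± 0.10 (SD, n = 5) compared with a knockout mean of 6.26 ± 0.21 (SD, n = 5). The difference was -0.44 with a standard error (SE) of 0.10, a 1.36-fold lower level, and did not pass (limma adjusted p = 0.357). All 11 Cd33 probe sets above the filter were lower, by -0.16 to -1.09.

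The other Siglec genes had smaller differences. Siglece, a receptor of neutrophils, monocytes and microglia, was at 5.85, 6.05, 5.75, 6.02 and 5.90 in wild type and at 5.77, 5.77, 5.74, 5.80 and 5.61 in the knockout, a difference of -0.18 (SE 0.08, limma adjusted p = 0.699) and of -0.09 without the intensity filter. Siglecg, which restrains B cells, was at 6.18, 6.39, 6.42, 6.64 and 6.45 in wild type and at 6.24, 6.32, 6.15, 6.47 and 6.37 in the knockout, a difference of -0.10 (SE 0.09). The probe sets named Siglec5 differed by -0.09 (SE 0.10). In all 3 the genotypes overlapped. Siglec genes resemble each other in sequence, and a probe set can read more than 1 of them. The difference of Cd33 lay beyond the spread of both groups, whereas that of Siglecg was smaller than the SD of the wild-type arrays.

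Microglial markers, which mark the resident cells that carry Cd33, were lower in 10 of 11 measured genes with a median of -0.04, and none passed. Their mean level ran from 7.01 to 7.34 on the wild-type arrays and from 7.07 to 7.17 on the knockout arrays, so the groups overlapped. Of the 9 blood cell markers only 5 were measured. Among these, 3 had a lower level in the knockout and 1 passed, and the middle difference of the 5 was small, at -0.09. Their mean level did not overlap between genotypes, at 6.53 to 7.02 on wild-type and 6.29 to 6.50 on knockout arrays. How far that mean rests on the 1 gene that passed was not tested. The part of the microglial and blood cell markers in the levels of the immune cell genes was not tested either.

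Among the remaining immune genes, Fcgrt, the neonatal Fc receptor that recycles immunoglobulin G and albumin, differed by -0.16 (SE 0.08), and all 11 of its probe sets were lower, by -0.06 to -0.27. Napsa, an aspartic protease, also differed by -0.16 (SE 0.08). Cd37, a tetraspanin of B cells, was at -0.15 (SE 0.08), Spib, a transcription factor of lymphoid and plasmacytoid cells, at -0.18 (SE 0.14), and Il4i1, a secreted amino acid oxidase, at -0.22 (SE 0.13). Nkg7, a granule protein of cytotoxic lymphocytes, differed by -0.08 (SE 0.14). The higher pair were Clec11a and Flt3l. Clec11a, a growth factor for bone and blood progenitors and the nearest telomeric gene, was at 6.64, 6.67, 6.75, 6.14 and 6.56 in wild type and at 6.57, 6.94, 6.40, 6.79 and 6.59 in the knockout, a difference of 0.11 (SE 0.12; -0.026 without wild-type arrays 4 and 5). Flt3l, a growth factor of dendritic cells, was at 0.05 (SE 0.09). In all of these the genotypes overlapped.

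The genes of metabolism and cell death numbered 6, of which 5 were tested. None passed, 4 were lower and 1 was higher, with a median of -0.10. Etfb encodes a subunit of the electron transfer flavoprotein, which passes electrons from mitochondrial fatty acid oxidation to the respiratory chain. It stood at 8.09, 8.24, 7.89, 7.86 and 7.94 in wild type and at 7.68, 7.81, 7.45, 7.70 and 7.57 in the knockout. The groups did not overlap, although the gap between the lowest wild-type and the highest knockout array was narrow. The difference was -0.36 (SE 0.09, limma adjusted p = 0.489). Aspdh, an enzyme of the aspartate dehydrogenase kind, was at -0.18 (SE 0.10), but at 0.0073 where the middle probe set stands for the gene, and Aldh16a1, an aldehyde dehydrogenase, was at -0.10 (SE 0.10). Gys1, the glycogen synthase of muscle and brain, differed by -0.01 (SE 0.09), and Bcl2l12, a relative of the Bcl2 family, by 0.02 (SE 0.08; -0.0073 without the intensity filter and -0.089 with the stricter one).

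The largest list held 14 genes of signalling, trafficking and maintenance. All 14 were tested, 11 were lower and 3 higher, none passed, and the median was -0.05. Josd2, a deubiquitinating enzyme, had the smallest p of the flanking genes. It stood at 7.35, 7.11, 7.02, 7.13 and 7.07 in wild type and at 6.76, 6.89, 6.69, 6.76 and 6.76 in the knockout. All knockout arrays lay below all wild-type arrays, and the difference of -0.36 (SE 0.08) was a 1.29-fold lower level with a limma adjusted p of 0.341. Of its 10 probe sets 9 were lower.

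Vrk3, a nuclear protein of the vaccinia-related kinase family, was at 7.01, 7.20, 6.88, 6.82 and 6.79 in wild type and at 6.57, 6.70, 6.63, 6.56 and 6.66 in the knockout, again without overlap. Its difference was -0.32 (SE 0.09, limma adjusted p = 0.524), and 13 of its 15 probe sets were lower. Pold1, the catalytic subunit of DNA polymerase delta, was at 6.64, 6.85, 6.57, 6.75 and 6.76 in wild type and at 6.46, 6.54, 6.55, 6.57 and 6.52 in the knockout. The lowest wild-type array and the highest knockout array had the same level to within rounding, and the difference was -0.19 (SE 0.07, limma adjusted p = 0.693), or -0.11 where the middle probe set stands for the gene. Akt1s1, an inhibitory partner of the growth kinase mTORC1, differed by -0.16 (SE 0.09), a value that ran from -0.57 to -0.10 over the other ways of processing. Ctu1, an enzyme of transfer RNA thiolation and the gene nearest to the cluster on the centromeric side, was at 6.51, 6.81, 6.41, 6.63 and 6.84 in wild type and at 6.16, 6.65, 6.37, 6.60 and 6.60 in the knockout. Its groups overlapped, and the difference was -0.16 (SE 0.11).

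The differences of 7 others of this list lay between -0.10 and 0.01. Fuz, a planar polarity gene needed for cilia, was at -0.10 (SE 0.07), Tbc1d17, a regulator of Rab GTPases, at -0.06 (SE 0.08), Pih1d1, a chaperone adaptor, at -0.03 (SE 0.09), Rras, a small GTPase, at -0.02 (SE 0.08), and Rcn3, a calcium-binding protein of the endoplasmic reticulum, at -0.01 (SE 0.08). Nucb1, a calcium-binding protein of the Golgi and the farthest gene of the set, differed by -0.00 (SE 0.09), and Nosip, a ubiquitin ligase that binds nitric oxide synthase, by 0.01 (SE 0.10). The remaining 2 were among the 5 higher genes of smallest p. Dkkl1, a secreted relative of the Dickkopf proteins, was at 6.68, 6.55, 6.69, 6.36 and 6.60 in wild type and at 6.87, 6.60, 6.55, 6.70 and 6.99 in the knockout, a difference of 0.17 (SE 0.10). Nup62, a nuclear pore protein, was at 6.78, 6.64, 6.54, 6.66 and 6.84 in wild type and at 6.77, 6.83, 6.68, 6.63 and 6.89 in the knockout, a difference of 0.07 (SE 0.08; -0.10 with the stricter intensity filter). Both overlapped between the genotypes.

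**Figure D2:**
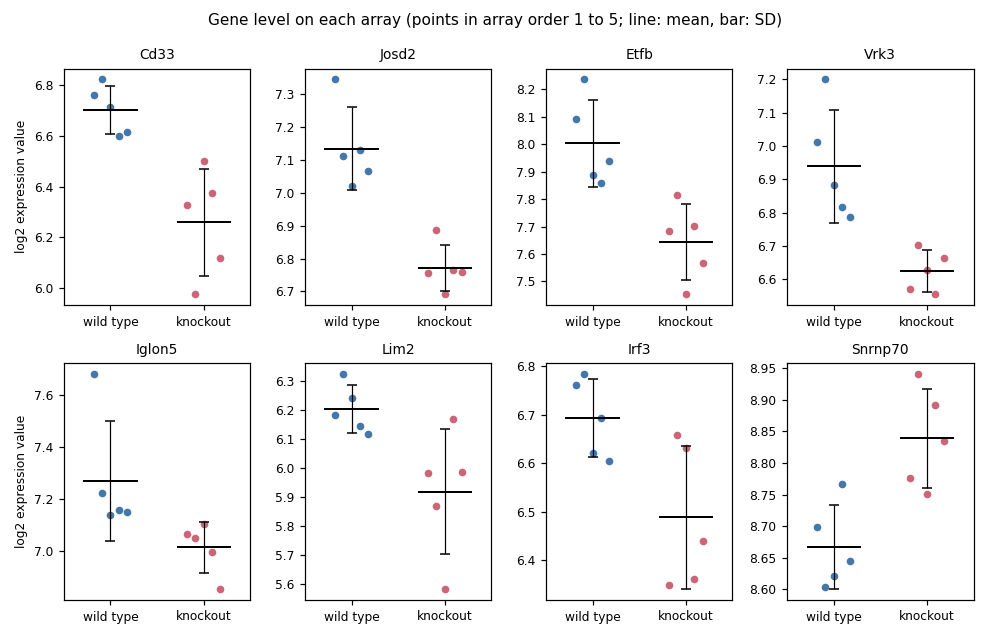
Gene level (log2) of 8 flanking genes on each of the 5 wild-type and 5 knockout arrays, with the mean as a line and the SD as a bar; each panel has its own axis, which does not start at 0. In Cd33, Josd2, Etfb, Vrk3 and Iglon5 the knockout arrays all lie below the wild-type arrays, in Lim2 and Irf3 they overlap, and in Snrnp70 they are mostly higher.

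The 6 neuronal, synaptic and channel genes split evenly, with 3 lower and 3 higher, none past the threshold and a median of 0.01. Iglon5, a cell adhesion molecule of neurons on the centromeric side, stood at 7.68, 7.22, 7.14, 7.16 and 7.15 in wild type and at 7.07, 7.05, 7.10, 7.00 and 6.85 in the knockout. The groups did not overlap, and wild-type array 1 stood far above the rest. The difference was -0.26 (SE 0.10, limma adjusted p = 0.693) and -0.15 without that array. Syt3, a synaptotagmin that senses calcium, and Lrrc4b, a postsynaptic adhesion protein, are the second and the third nearest tested genes of the set on the telomeric side. Syt3 was at 8.34, 8.40, 8.19, 8.13 and 8.28 in wild type and at 8.15, 8.26, 8.38, 8.18 and 8.35 in the knockout, a difference of -0.00 (SE 0.08). Lrrc4b was at 8.70, 8.89, 8.56, 8.55 and 8.70 in wild type and at 8.36, 8.72, 8.48, 8.73 and 8.84 in the knockout, a difference of -0.05 (SE 0.10). The groups of both overlapped, and the sign of both turned when single arrays were left out. Ppfia3, a liprin of the presynaptic active zone, was at 8.69, 8.52, 8.63, 8.58 and 8.66 in wild type and at 8.64, 8.75, 8.73, 8.71 and 8.78 in the knockout, a difference of 0.11 (SE 0.07). Lin7b, a scaffold protein of synapses, was at 9.26, 9.43, 9.17, 9.37 and 9.25 in wild type and at 9.51, 9.42, 9.42, 9.30 and 9.50 in the knockout, a difference of 0.13 (SE 0.08) that was 0.0084 without the intensity filter. In both genes the knockout arrays were mostly the higher ones but the groups overlapped. Trpm4, a cation channel opened by calcium, was at 0.03 (SE 0.07). Neuron markers were higher in 5 of 9 measured genes with a median of 0.05, and their mean levels overlapped between genotypes; their part in these values was not tested.

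All 5 tested genes of muscle, lens and junctions were lower, with a median of -0.23, and none passed. Lim2, a membrane protein of lens fibres, was at 6.18, 6.32, 6.24, 6.15 and 6.12 in wild type and at 5.98, 5.87, 5.58, 6.17 and 5.99 in the knockout. Knockout array 4 lay within the range of the wild-type arrays, the other knockout arrays below it, and the difference was -0.28 (SE 0.10, limma adjusted p = 0.693). Cldnd2, a claudin-like membrane protein, differed by -0.26 (SE 0.12; 0.018 without the intensity filter), and Myh14, a non-muscle myosin heavy chain, by -0.23 (SE 0.11), with 34 of its 38 probe sets lower, and by -0.14 without wild-type array 1. Mybpc2, a myosin-binding protein of fast muscle, was at -0.10 (SE 0.09) and Hrc, a calcium-binding protein of the sarcoplasmic reticulum, at -0.06 (SE 0.08).

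The genes of transcription, chromatin and RNA were balanced. Of the 12, 11 were tested, 5 were lower and 6 higher, and the median was 0.01. Snrnp70, a protein of the U1 spliceosome particle, was the only gene of the 52 that was higher with an unadjusted p under 0.05. It stood at 8.70, 8.60, 8.62, 8.77 and 8.65 in wild type and at 8.78, 8.94, 8.75, 8.89 and 8.84 in the knockout, and wild-type array 4 lay above knockout array 3, the only overlap. The difference was 0.17 (SE 0.07, limma adjusted p = 0.693), or 0.0857 where the middle probe set stands for the gene.

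Irf3, the transcription factor that switches on type I interferon genes after viral sensing, went the other way. It was at 6.76, 6.78, 6.62, 6.69 and 6.60 in wild type and at 6.35, 6.66, 6.63, 6.36 and 6.44 in the knockout, where arrays 2 and 3 lay within the wild-type range. The difference was -0.20 (SE 0.08, limma adjusted p = 0.693), or -0.06 by the middle probe set. Med25, a Mediator subunit, was at -0.13 (SE 0.07; 0.017 where the middle probe set stands for the gene) and Atf5, a stress-responsive transcription factor, at -0.10 (SE 0.09). The nuclear receptor gene Nr1h2, the methyltransferase gene Prmt1, the helicase gene Ruvbl2, and Tead2, Ptov1, Prr12 and Scaf1 differed by -0.02 to 0.04.

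Irf3 and Bcl2l12 are transcribed away from each other, and their RefSeq starts lie 69 bases apart in GRCm38.p6, so the pair offers a comparison of genes with adjoining promoters. They differed by -0.20 and 0.02, in both cases with overlapping groups, and the difference between the genes was not tested. Over the other ways of processing Irf3 ran from -0.25 to -0.06 and Bcl2l12 from -0.09 to 0.07. Other flanking genes also had nearby starts on opposite strands, with a smaller gap between their differences. Atf5 and Nup62, with starts 430 bases apart, differed by -0.10 and 0.07. Ruvbl2 and Gys1, 375 bases apart, differed by 0.01 and -0.01. Aldh16a1 and Pih1d1, whose starts overlap, differed by -0.10 and -0.03. These gaps were not tested either. Irf3 and Bcl2l12 had the closest starts of the pairs transcribed away from each other. The 68 bases between these starts, chr7:44997580-44997647 on the plus strand with Irf3 to the right, are shown for that reason. Below them are the 250 bases before the RefSeq start of the 3 genes of smallest p, read on each gene's own strand: Cd33 at chr7:43533172-43533421 on the minus strand, Etfb at chr7:43443822-43444071 and Josd2 at chr7:44467730-44467979 on the plus strand.
Bcl2l12 to Irf3: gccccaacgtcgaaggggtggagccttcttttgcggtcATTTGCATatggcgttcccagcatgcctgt
Cd33: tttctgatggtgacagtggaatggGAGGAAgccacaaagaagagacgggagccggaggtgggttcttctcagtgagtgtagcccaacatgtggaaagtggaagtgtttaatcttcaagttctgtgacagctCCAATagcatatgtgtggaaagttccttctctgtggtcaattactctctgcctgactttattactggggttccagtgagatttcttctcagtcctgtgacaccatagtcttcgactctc
Etfb: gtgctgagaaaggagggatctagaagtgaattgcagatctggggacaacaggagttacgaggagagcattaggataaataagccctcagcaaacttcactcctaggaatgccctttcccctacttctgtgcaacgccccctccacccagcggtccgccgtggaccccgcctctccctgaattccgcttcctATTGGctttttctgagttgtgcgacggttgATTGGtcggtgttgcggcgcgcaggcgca
Josd2: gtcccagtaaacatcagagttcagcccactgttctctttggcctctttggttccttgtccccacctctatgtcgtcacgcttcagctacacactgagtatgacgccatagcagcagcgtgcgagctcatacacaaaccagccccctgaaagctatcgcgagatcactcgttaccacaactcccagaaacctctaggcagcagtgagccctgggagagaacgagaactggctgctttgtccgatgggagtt

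Capitals mark matches, on either strand, to 5 short motifs that were searched: the box named GGGCGG that Sp1 proteins bind, the motif CCAAT, the PU.1 core sequence GAGGAA, the box called TATAAA, and the octamer motif ATTTGCAT. No match overlapped another. CCAAT occurred 1 time in Cd33 and 2 times in Etfb, and 33.8% of the 32851 promoters in the table hold it in 250 bases. GAGGAA occurred 1 time in Cd33, against 23.3% of promoters. The octamer stood 1 time between Bcl2l12 and Irf3, and 0.396% of promoters hold it in the 68 bases before the start. Josd2 held none of the 5 motifs. The windows of Cd33, Josd2 and Etfb held 3, 10 and 14 CpG dinucleotides, where the median promoter held 6. A match is a description of the letters and not a binding site.

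Single exons were compared next, because a gene mean can hide 1 deviating probe set. Of the 771 probe sets above the filter, 461 were lower (59.8%, against 49.7% of all probe sets) and none passed (limma, adjusted over 628415 probe sets, smallest adjusted p = 0.146), where 15 probe sets, or 0.00239%, passed overall. At an unadjusted p under 0.05 there were 64, or 8.30%, against 5.97% of all probe sets. At an unadjusted p under 0.001 there were 8, or 1.04%, against 0.145% of all, and 7 of the 8 were lower, where 0.0509% of all were lower and 0.094% higher at this level. Leaving out wild-type array 1 reduced that number to 2. It was 3 when wild-type array 2, wild-type array 3 or knockout array 2 was dropped, 4 for knockout array 3 or 4, and 5 for wild-type array 4 or 5. With single arrays left out, 0.105% to 0.176% of all probe sets reached this level. In 27 of the 771 probe sets, 3.50%, the groups did not overlap, against 1.1% of all.

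The probe set with the smallest p was 5349542 of Etfb. It was at 8.13, 8.45, 7.69, 7.89 and 7.71 on the wild-type arrays and at 6.86, 6.06, 5.77, 6.82 and 6.18 on the knockout arrays. Every knockout array lay well below every wild-type array, and the difference was -1.63 (SE 0.24, limma adjusted p = 0.146). It passed in 2 of 18 other ways of processing, the stricter intensity filter (adjusted p = 0.0151) and the trended and robust prior (adjusted p = 0.0030), and its adjusted p over all 18 ran from 0.0030 to 0.458. The other 7 Etfb probe sets differed by -0.37 to 0.31. Without the 8 probe sets of smallest p, an alternative chosen after seeing the data, the Etfb gene difference was -0.18 in place of -0.36 (adjusted p = 0.721), that of Cd33 was -0.38 and that of Josd2 -0.32.

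In Cd33 and Josd2 most probe sets were on the lower side, and 4 of 11 and 5 of 10 had an unadjusted p under 0.05. Probe set 4498056 of Cd33 was at 7.74, 7.70, 7.48, 7.32 and 7.32 in wild type and at 6.87, 5.48, 6.17, 6.60 and 6.98 in the knockout, a difference of -1.09 (SE 0.26, limma adjusted p = 0.687). Its knockout arrays spread widely but stayed below the wild-type arrays. The other 10 Cd33 probe sets were lower by a median of -0.36. Probe set 4619424 of Josd2 was at 8.55, 8.49, 8.17, 7.95 and 8.21 in wild type and at 7.69, 7.47, 7.71, 7.21 and 7.43 in the knockout, a difference of -0.77 (SE 0.17). Probe set 4998190 of Vrk3 was at 8.28, 8.28, 8.11, 8.22 and 8.34 in wild type and at 7.83, 7.64, 7.72, 7.60 and 7.38 in the knockout, with no overlap and a difference of -0.61 (SE 0.14), while the other 14 Vrk3 probe sets had a median of -0.30.

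In Tbc1d17 a few probe sets were lower without overlap while the median of the rest was above 0; none passed. Probe set 5102156 was at 9.54, 9.22, 9.21, 9.05 and 9.07 in wild type and at 8.53, 8.46, 8.78, 8.32 and 8.36 in the knockout, a difference of -0.73 (SE 0.16, limma adjusted p = 0.640). Probe set 5275124 was at 8.39, 8.30, 8.30, 8.26 and 8.33 in wild type and at 7.82, 7.95, 7.43, 7.49 and 7.63 in the knockout, a difference of -0.65 (SE 0.15). In both, all knockout arrays lay below all wild-type arrays. Probe set 4864691 of Tbc1d17, named after its values were seen, differed by -0.64 (SE 0.16), also without overlap. The other 22 probe sets of Tbc1d17 had a median difference of 0.08, from -0.44 to 0.30.

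Pold1 and Snrnp70 each had 1 probe set of this kind. Probe set 4378367 of Pold1 was at 7.59, 7.47, 7.68, 7.57 and 7.84 in wild type and at 7.07, 6.79, 6.88, 6.60 and 6.32 in the knockout, a difference of -0.90 (SE 0.17, limma adjusted p = 0.440). The groups did not overlap, and the other 26 Pold1 probe sets ran from -0.82 to 0.61 with a median of -0.15. Probe set 5054129 of Snrnp70 was at 9.06, 9.61, 9.21, 9.40 and 9.81 in wild type and at 10.18, 10.32, 10.66, 10.04 and 10.18 in the knockout. It was the only one of the 8 that was higher, by 0.86 (SE 0.18, limma adjusted p = 0.640), and its lowest knockout array exceeded its highest wild-type array. It passed with the trended and robust prior (adjusted p = 0.0391) and in none of the other 17 ways of processing. The other 26 Snrnp70 probe sets had a median of 0.13.

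**Figure D3:**
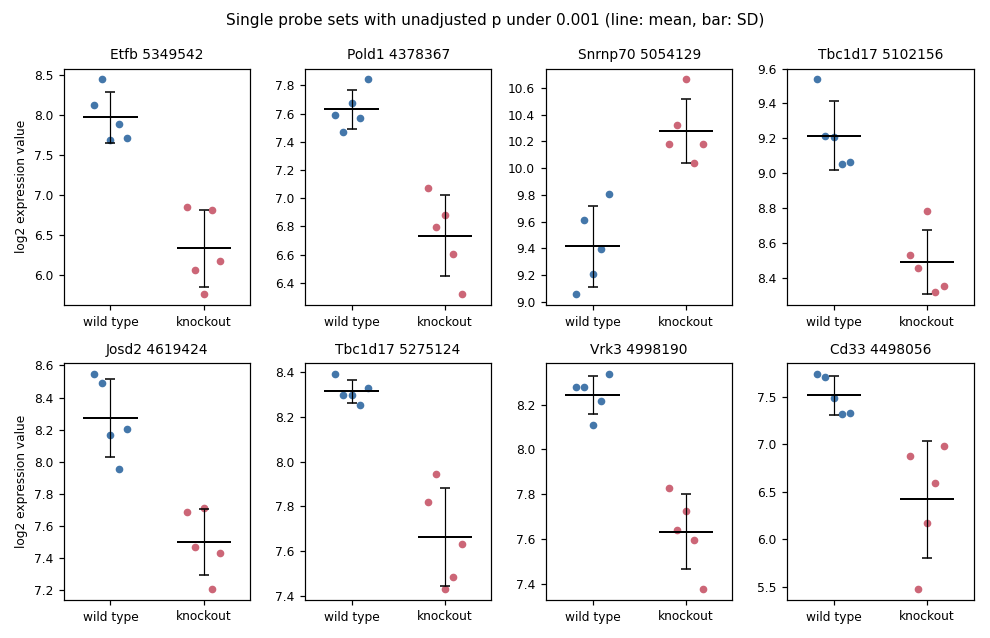
Values (log2) of the 8 probe sets of flanking genes with an unadjusted p under 0.001 on each of the 5 wild-type and 5 knockout arrays, with the mean as a line and the SD as a bar; each panel has its own axis, which does not start at 0. In 7 of the 8 the knockout arrays all lie below the wild-type arrays, and in Snrnp70 probe set 5054129 they all lie above.

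To separate a single exon from its gene, each probe set was set against the mean of the other tested probe sets of the same gene and the result tested over 238335 probe sets. No probe set of the flanking genes passed (limma, smallest adjusted p = 0.270), where 11 probe sets, or 0.00462%, passed overall. At an unadjusted p under 0.001 there were 6, all lower, against 0.113% of all probe sets, 0.0604% lower. Relative to its gene, the Etfb probe set 5349542 was at -1.46, the Pold1 probe set 4378367 was at -0.74, and the 3 Tbc1d17 probe sets were at -0.69, -0.62 and -0.61. The remaining one was probe set 4728782 of Ptov1, a regulator of transcription, at -0.78, although the Ptov1 gene level differed by 0.04. That probe set, chosen after its values were seen, was at 6.56, 7.05, 6.90, 6.96 and 6.70 in wild type and at 5.93, 6.27, 5.81, 6.55 and 6.10 in the knockout, without overlap. The Cd33, Josd2 and Vrk3 probe sets named above were at -0.71, -0.45 and -0.32 relative to their genes.

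**Figure D4:**
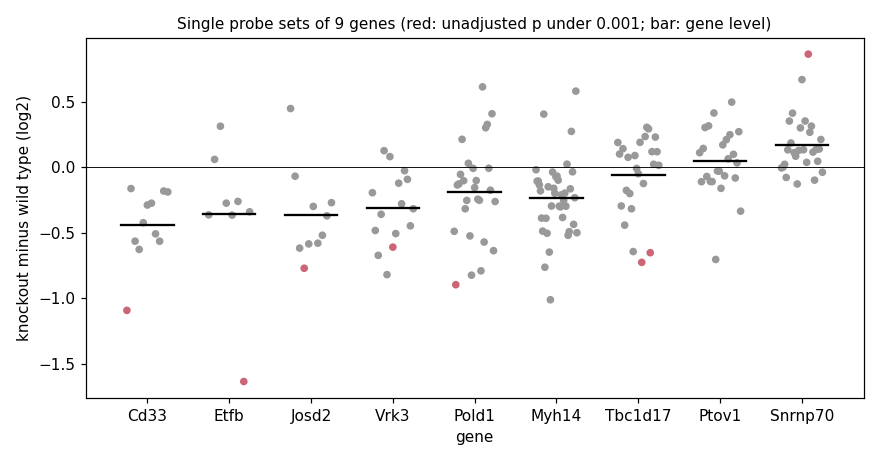
Differences between knockout and wild type (log2) of the single probe sets above the filter in 9 flanking genes, with the gene-level difference as a bar and probe sets with an unadjusted p under 0.001 in red. In Cd33 all 11 probe sets lie below 0, in Etfb 1 probe set at -1.63 lies far below the other 7, and in Tbc1d17 most probe sets scatter around 0 while a few lie below -0.6.

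Probe set positions and probe sequences were not used here, so the exons behind these probe sets are not named. Base differences between the genotypes under the probes could not be looked at either. Their part in the single probe set values was not tested. With 5 arrays per genotype the precision is limited by their number, and a p that misses the threshold does not show that levels were equal.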

How the data were processed

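Amygdala RNA of 5 wild-type and 5 knockout pools was measured on GeneChip Mouse Exon arrays. The authors deposited 1 log2 expression value for each probe set on each array. Per the labels, and per the submitters' processing notes, these are RMA values (background correction, quantile normalization and summary over probes) from Affymetrix Expression Console. Software version: not given in the sources used here. Annotation build: likewise. Of 1256831 probe sets, 318760 had 1 gene symbol in the platform annotation, 6684 several and 931387 none; of 22296 symbols 18006 were current in the GRCm38.p6 gene table, 4227 were updated through a synonym held by 1 gene and 63 kept as given. Gene order is that of this table.

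Here, probe sets with a mean above the median of all (4.94) were kept (628415), and gene levels were means over at least 3 of them (16367 genes). Genotypes were compared with limma 3.58.1 (lmFit, eBayes) in R 4.3.3, two-sided, Benjamini-Hochberg adjusted, threshold 0.05, without covariates. Klk8 was tested by exact permutation of the arrays. The scripts were tested on simulated data. Promoter sequences are from RefSeq (GRCm38.p6), where 51 of the 56 genes had an entry.

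Named were Klk8, the 5 genes higher and the 5 lower with the smallest p, the 3 tested genes nearest Klk8 on each side, 2 to 4 genes of each role list with the smallest p, the Siglec genes, and probe sets with an unadjusted p under 0.001; other genes are given by their difference. The genes, lists and tests were chosen with earlier results of these data known. Replicates are pools as the labels number them, and p-values measure only the spread between these arrays. Alternatives varied the normalization, the intensity filter, the probe sets per gene, their summary, the variance prior, array weights, the replicate block and the arrays included.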

Additional observations from a re-analysis of the deposited data

Results flagged for a closer look

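In groups of 5 arrays, an array was looked at again when its gap to the nearest other array, divided by the range of the group, exceeded 0.71. Of 124 groups of gene levels and probe set values examined, 4 did, and chance alone gives about 1 in 20. Wild-type array 1 was the highest in Iglon5, at 7.68 against 7.14 to 7.22 on the other wild-type arrays, and also in Prr12, at 7.69 against 7.49 to 7.54. Knockout array 4 was the highest in Spib, at 6.83 against 6.12 to 6.30 on the other knockout arrays. Knockout array 1 was the highest in Atf5, at 6.48 against 6.21 to 6.28.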

How the results depend on the processing

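None of the flanking genes passed under any of the 20 other ways of processing, and 30 of 38 named results kept their direction in all of theirs. The number of lower genes with an unadjusted p under 0.05 was 10. It was 6 with each array centred on its median, 5 with the median over probe sets and 6 to 13 with single arrays left out. Of all genes, 6.07%, 5.72% and 5.32% to 10.6% then reached that level in either direction, in place of 6.98%. With the stricter filter the number was 12 of 42 tested genes, where 6.36% of all genes reached that level in either direction. The 8 probe sets with an unadjusted p under 0.001 became 4 without the intensity filter, 5 without wild-type arrays 4 and 5, and 2 to 7 with single arrays left out. Of all probe sets, 0.116%, 0.154% and 0.105% to 0.176% then reached that level, in place of 0.145%. The count of passing probe sets of these genes, 0, was 1 under the stricter filter, and 2 when the variance prior was trended and robust. Over all genes, the 4 that passed became 2 with at least 1 probe set per gene and 2 to 6 with single arrays left out. The difference of Syt3 turned to 0.0102 with centred arrays and 0.0070 with the median over probe sets, where Aspdh was at 0.0073 and Med25 at 0.0168. Without the intensity filter Bcl2l12 was at -0.0073 and Cldnd2 at 0.018, and with the stricter filter Bcl2l12 was at -0.0888 and Nup62 at -0.10. Clec11a was at -0.0261 without wild-type arrays 4 and 5. With single arrays left out, Syt3 ran from -0.039 to 0.0283, Bcl2l12 from -0.0243 to 0.0725 and Lrrc4b from -0.10 to 0.0164. Of the 30 named genes, 24 moved by over 1.5 times or changed sign in at least 1 of these, 15 with a single array left out. Cd33, Etfb, Fcgrt, Josd2, Lim2 and Vrk3 did not. The alternative without the 8 probe sets of smallest p is not counted here, and in it Etfb was at -0.18 in place of -0.36. The causes were not tested.

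The arrays of both genotypes are numbered 1 to 5, but deviations of same-numbered arrays correlated at 0.282, 0.0817, 0.265, 0.412 and 0.240. As 1 of the 5 was under 0.1 and the labels name no shared batch, the arrays were not treated as pairs, although the mean over the centromeric genes and that over the telomeric genes were lower in the knockout array of the same number in 5 of 5. With the replicate block, 13 lower genes had an unadjusted p under 0.05, a level that 11.0% of all genes then reached in place of 6.98%. Of the probe sets of the flanking genes 4 had one under 0.001, where 0.149% of all probe sets did. Over all genes 3 passed, and none of the flanking genes did. Not every array correlated best with its own number. Signal near background limits the filter: genes with few probe sets above it, such as Cldnd2 with 3, rest on little.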
